A study of Mus musculus with 6 samples.

Results

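Cells take up, store and release iron through a small set of proteins, and 10 genes of that set were followed in mouse colorectal cancer organoids treated with chemotherapy. The genes were chosen by function, as the transferrin receptor and its reductase (Tfrc, Steap3), the ferrous iron importer (Slc11a2), both ferritin chains (Fth1, Ftl1), the iron exporter (Slc40a1), both ferroxidases (Cp, Heph) and both iron regulatory proteins (Aco1, Ireb2). All 10 were found in the count table of 24190 genes, and all 10 passed the expression filter that left 14692 genes for testing. RNA was sequenced from organoids of the mouse tumor line MTO54. Its genotype is labelled AKP. The parental line was used, and both groups share this genotype. Organoids were dissociated, seeded as single cells in BME, a basement membrane extract, and left for 2 days. They then received complete stem cell medium alone (control, n = 3) or the same medium with Folfiri (n = 3) for a further 2 days. Folfiri combined SN38, the active form of irinotecan, at 100 nM with 5FU, given in the labels as 50 μg/μl. All samples come from 1 organoid line in culture, without the blood, macrophages and liver that handle iron in an animal. The study calls the samples of a group biological replicates. Neither it nor the labels say whether they were separate cultures, so p values measure the spread between these samples, which may be technical. The treatment time is that of the labels and the study's methods, and a legend in the study gives a longer one.

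Iron enters most cells bound to transferrin, which the receptor encoded by Tfrc carries into endosomes, where the reductase Steap3 and the transporter encoded by Slc11a2 (DMT1) move it into the cytosol. Intestinal cells also use DMT1 on their surface to absorb iron from food. Iron not in use is stored in shells of ferritin heavy and light chains, and the surplus leaves through ferroportin, the product of Slc40a1, aided by a copper enzyme that oxidizes it, hephaestin (Heph) in the membrane of the gut epithelium or ceruloplasmin (Cp), best known as a liver protein of plasma. When iron is scarce, the iron regulatory proteins encoded by Aco1 and Ireb2 bind hairpins called iron-responsive elements (IREs). An IRE in a 5′ UTR then blocks translation, and the IREs in the Tfrc 3′ UTR protect the mRNA from decay.

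These elements are what ties several of the genes to one another, so they were read from the GENCODE vM21 transcripts (build GRCm38) for all 10 genes. The search took CNNNNNCAGTGN on the transcript strand, followed by 5 bases that pair with the 5 before the loop, inside an annotated UTR of a basic coding transcript. G paired with T was allowed. Matches were present in 4 of the genes, and the annotated UTRs of the other 6 held no such letters. They are shown 5′ to 3′ with 6 flanking bases on each side, and the capitals mark the loop.
Fth1, 5′ UTR, chr19:9982732-9982760, plus strand: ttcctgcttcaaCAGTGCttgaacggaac
Ftl1, 5′ UTR, chr7:45459779-45459807, minus strand: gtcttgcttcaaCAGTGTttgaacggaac
Slc40a1, 5′ UTR, chr1:45925465-45925493, minus strand: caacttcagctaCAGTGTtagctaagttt
Tfrc, 3′ UTR, chr16:32631219-32631247, plus strand: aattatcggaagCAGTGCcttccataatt
Tfrc, 3′ UTR, chr16:32631598-32631626, plus strand: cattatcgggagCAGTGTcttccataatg
Tfrc, 3′ UTR, chr16:32631663-32631691, plus strand: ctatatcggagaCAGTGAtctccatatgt
Tfrc, 3′ UTR, chr16:32631710-32631738, plus strand: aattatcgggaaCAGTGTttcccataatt
Matches of this form were found in the UTRs of 155 of 21864 coding genes (0.709%), in a 5′ UTR for 28 and in a 3′ UTR for 127. A match is a description of the letters, and gene counts measure neither binding nor translation. An IRE of another form would be missed by this search.

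The libraries held from 22103591 to 30098210 counts on genes. Counts were scaled with TMM, and levels are given as TMM-normalized CPM (counts scaled to a common library size). Values after ± are SD over the 3 libraries of a group, unless named as SE. The organoids expressed intestinal epithelial markers, with a summed level of 5732 to 6639 CPM over 9 markers in control and 4647 to 4818 CPM in Folfiri libraries. Of the 8 of these markers tested, 4 fell, Cdx2, Epcam, Krt19 and Krt8 with log2 fold changes of -1.53, -0.94, -0.62 and -0.27, and Cdh1 rose with 0.21. Krt18, Vil1 and Krt20 did not pass the threshold at -0.18, -0.11 and -0.13, and Cdx1, not tested, had means of 0.519 and 0.0108 CPM. The summed level of 9 markers of macrophages and other blood cells was 28.2 to 32.1 CPM in control and 34.2 to 36.8 CPM in Folfiri libraries. Most of it came from Cd68 and Cd14. Of the 4 of these markers tested, 3 rose, Cd14, Ptprc and Adgre1 with log2 fold changes of 1.02, 1.39 and 1.86, and Cd68 did not pass the threshold at -0.20. Lyz2, Csf1r and Itgam had means below 0.1 CPM in both groups, and Cd3e had no row. Sums over 6 fibroblast markers were 1.08 to 1.44 and 2.03 to 2.45 CPM, over 5 hepatocyte markers at most 2.93 and 1.74 CPM, and over 5 red blood cell markers at most 0.154 and 0.402 CPM, in control and Folfiri libraries. The part of these cell types in the results was not tested. In bulk RNA, fewer cells of a type and less RNA per cell cannot be told apart. Control replicate 1 differed most from its group, with a chi-square per degree of freedom of 23.7 and 22.4 against the other controls, which differed from each other by 3.84. Without it, 7 of the 10 iron genes were called in place of 6, Steap3 being the added gene. Folfiri replicate 3 also stood apart, at 12.3 and 11.9 against the other Folfiri libraries, which differed from each other by 3.55. Without it, 5 of the 10 iron genes were called, Ireb2 being the gene lost.

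Folfiri was compared with control by edgeR's quasi-likelihood test, with Benjamini-Hochberg adjustment over all 14692 genes and a threshold of 0.05. Of the 10 iron genes, 6 changed, Cp and Slc11a2 upward and Heph, Tfrc, Ftl1 and Ireb2 downward, while 4 did not pass the threshold. Of all genes tested, 79.1% passed it, 40.3% upward and 38.8% downward, so calls were no more frequent among the iron genes than among genes in general. The values of the groups did not overlap for 7 of the 10 genes, against 81.4% of all genes. The median log2 fold change was -0.09 over the 10 genes and 0.02 over all genes. The ferroxidases changed in opposite directions (Cp higher, Heph lower), as did the importer and the receptor (Slc11a2 higher, Tfrc lower). Of each other pair, 1 gene was called under TMM, Ftl1 and Ireb2, both lower, and Fth1 and Aco1 did not pass the threshold.

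**Figure D1:**
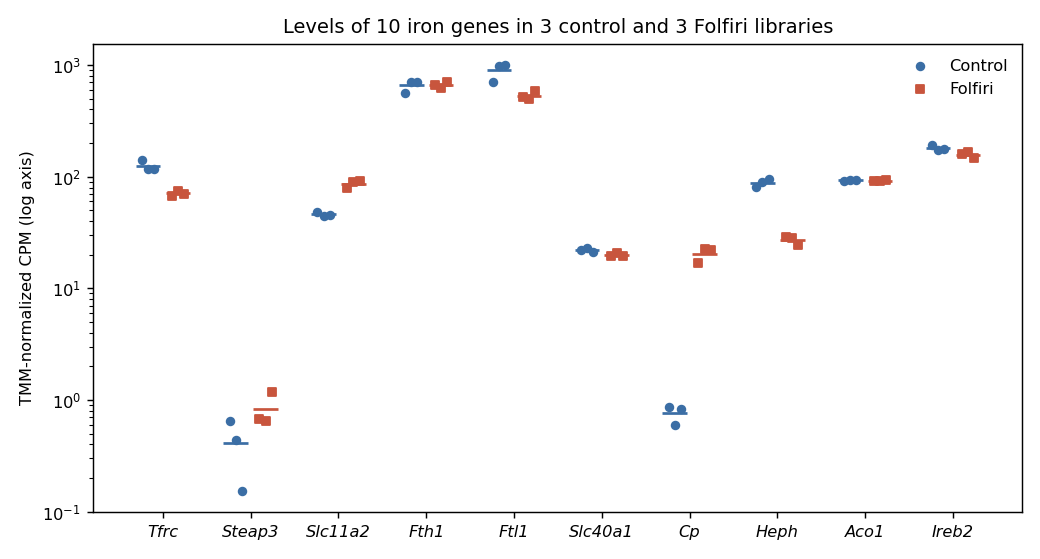
TMM-normalized CPM (log axis) of the 10 iron genes in each library, blue circles for the 3 control and red squares for the 3 Folfiri libraries, with horizontal lines at the group means. Cp lies below 1 CPM in each control and above 16 CPM in each Folfiri library, whereas Aco1 and Fth1 overlap between the groups.

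The choice of scaling matters for the small changes. When libraries were scaled by their totals alone, the median over all tested genes moved from 0.02 to 0.30 on the log2 scale, and the share of upward calls went from 51.0% to 63.3%. Under that scaling 5 of the iron genes were called higher and 3 lower, beside 49.8% and 28.9% of all genes. The added upward calls were those of Steap3, Fth1 and Aco1, and Ireb2 lost its call. Relative to the median of all genes, the log2 fold changes were almost the same under both scalings, as for Aco1 at -0.04 in each, for Ireb2 at -0.22 in each and for Slc40a1 at -0.18 in each.

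**Figure D2:**
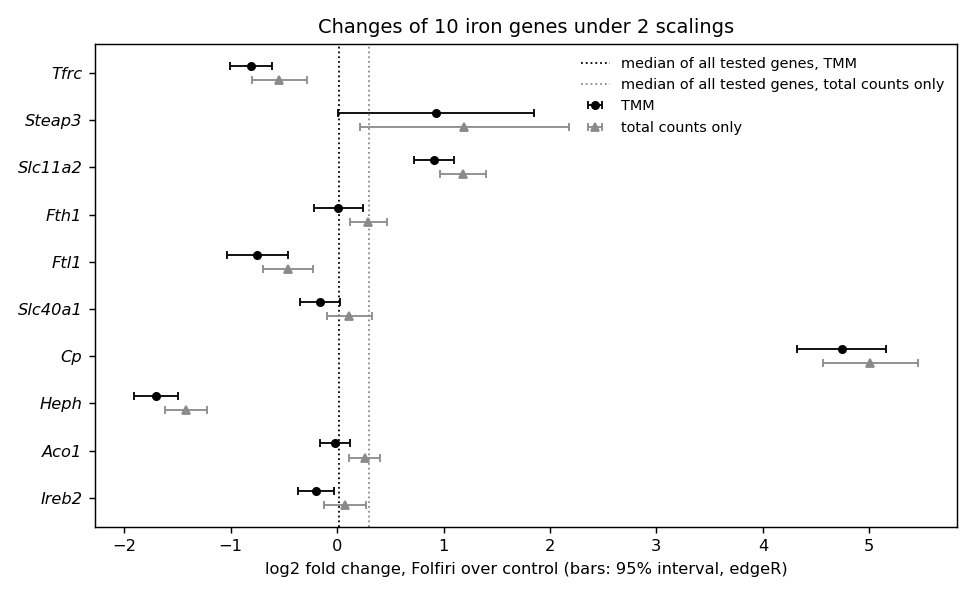
Log2 fold change of Folfiri over control (x axis) for each iron gene, with 95% intervals from edgeR, under TMM (black circles) and total count scaling (grey triangles), and dotted lines at the median of all tested genes under each. Cp, Slc11a2, Heph, Tfrc and Ftl1 keep their direction, while Slc40a1, Aco1 and Ireb2 lie below 0 with TMM and above 0 with total counts only.

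Among the genes of uptake, Tfrc (ENSMUSG00000022797, chromosome 16 of GRCm38 from 32608920 to 32632794) encodes the receptor that binds iron-loaded transferrin. Its level was 141, 116 and 116 CPM in control replicates 1, 2 and 3, and 67.7, 74.9 and 70.5 CPM in the Folfiri replicates. Each treated library lay below each control. Tfrc fell from 125 ± 14.3 to 71.1 ± 3.65 CPM, or -0.81 in log2 fold change (edgeR SE 0.09, adjusted p = 1.04e-05), and by 0.71 on the log2 scale without control replicate 1, the library with the highest level. The 4 matches printed for its 3′ UTR are in 1 of its 2 basic coding transcripts.

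Slc11a2 (ENSMUSG00000023030, chromosome 15 from 100387898 to 100425072) moved the other way. DMT1, its product, carries ferrous iron across the endosomal and the apical membrane. It stood at 48.7, 44.1 and 45.0 CPM in the controls and 78.5, 88.8 and 91.7 CPM after Folfiri. The groups did not overlap, and the rise from 45.9 ± 2.42 to 86.4 ± 6.95 CPM was 0.91 in log2 fold change (edgeR SE 0.08, adjusted p = 2.48e-06). Slc11a2 transcripts are known to differ in their last exons, some with an IRE and some without, and counts per gene do not separate them. The search for IRE letters found no match in the UTRs of Slc11a2. An opposite gene, Gm5475, shares 6.33% of its exonic bases and had at most 8 counts in a library.

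Within each library the ratio of Slc11a2 to Tfrc does not depend on scaling. Per exonic base it was 0.336, 0.369 and 0.377 in controls and 1.13, 1.15 and 1.27 after Folfiri, so that the importer passed the receptor in each treated library. This pair was chosen after its values were seen, and the ratio is given without a test.

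Steap3 (ENSMUSG00000026389, chromosome 1 from 120190757 to 120272705), the ferrireductase of the endosome in red cell precursors, was barely expressed. It had 18, 11 and 3 counts in the controls and 20, 20 and 39 after Folfiri, or 0.648, 0.440 and 0.154 against 0.671, 0.645 and 1.18 CPM. The values overlapped, and the log2 fold change of 0.93 (95% interval 0.01 to 1.85) did not pass the threshold (adjusted p = 0.0594 from edgeR). It was called with total counts only, with no filter on low counts, and without control replicate 1, at a log2 fold change of 1.41. Without control replicate 3 or Folfiri replicate 3 the log2 fold change was 0.60 or 0.58, and it was not called. Steap3 did not pass the filter of 1 CPM in 3 samples and was not tested with it. Over the other alternatives its adjusted p ran from 0.0142 to 0.256.

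Both ferritin chains were among the most abundant transcripts, and only the light chain changed past the threshold under TMM. Fth1 (ENSMUSG00000024661, chromosome 19 from 9980598 to 9985098) encodes the heavy chain, which oxidizes iron as it enters the shell. Its level was 558, 711 and 704 CPM in the controls and 660, 627 and 699 CPM after Folfiri. The groups overlapped around the same mean, at a log2 fold change of 0.01 (95% interval -0.22 to 0.24, adjusted p = 0.939 from edgeR), and with total counts only it was called higher at 0.29.

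Ftl1 (ENSMUSG00000050708, chromosome 7 from 45457944 to 45459884) encodes the light chain, which helps to form the mineral core. It stood at 707, 984 and 996 CPM in the controls and at 516, 499 and 584 CPM after Folfiri. Each treated library lay below each control, with control replicate 1 the lowest control for both chains. The fall from 896 ± 164 to 533 ± 44.8 CPM was -0.75 in log2 fold change (edgeR SE 0.13, adjusted p = 0.000316), and -0.46 with total counts only. Without control replicate 1 it was -0.89.

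The values of Ftl1 carry a doubt over shared reads. Of the windows of 50 bases along its longest coding transcript, 90.6% also occurred in transcripts of other genes, and 73.4% occurred in Ftl1-ps1, which the annotation lists as protein coding despite its name. The first share includes genes that overlap Ftl1 itself. Gm10252, on the opposite strand, shares 26.5% of the exonic bases of Ftl1, and Gm22133, on the same strand, 8.13%. Neither had a count. For Fth1 the share was 4.01%, and for each of the other 8 genes it was 0. Ftl1-ps1 held 31.6% to 33.5% of the summed counts of both loci in the 6 libraries, and fell by 0.68 in log2 fold change (edgeR SE 0.13, adjusted p = 0.000549). How reads with several positions were counted is not given in the sources used here, so counts cannot show from which locus they came. With the counts of both loci summed, the log2 fold change of the light chain was -0.73.

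The ratio of both chains is independent of scaling. Per exonic base the ratio of Fth1 to Ftl1 was 0.305, 0.279 and 0.273 in controls and 0.494, 0.485 and 0.463 after Folfiri, without overlap. The mean ratio was 1.68-fold higher after Folfiri, and 1.66-fold with Ftl1-ps1 added to Ftl1.

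Among the 10 genes, the widest changes belonged to the ferroxidases, in opposite directions. Cp (ENSMUSG00000003617, chromosome 3 from 19957054 to 20009145), the ceruloplasmin gene, had 24, 15 and 16 counts in the controls and 506, 699 and 720 after Folfiri. In CPM these were 0.864, 0.600 and 0.823 against 17.0, 22.6 and 21.8, so each treated library was far above each control. The mean rose 26.8-fold, from 0.762 ± 0.142 to 20.5 ± 3.04 CPM, or 4.74 in log2 fold change (edgeR SE 0.19, adjusted p = 9.64e-09).

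Hps3, on the opposite strand, shares 108 exonic bases with Cp, 1.13% of the exonic length of Cp. The library kit is one that does not mark strand, so reads from these bases cannot be assigned. Hps3 itself rose from 4.20 ± 1.64 to 9.83 ± 1.48 CPM, or 1.20 in log2 fold change (edgeR adjusted p = 0.000571). Its highest count in a library was 345. Of the 5 hepatocyte markers, Alb, the albumin gene, was the 1 that passed the filter, and it fell from 2.33 to 1.03 CPM. Apoa1 and Apob had 0.149 and 0.0996 CPM in control and 0.357 and 0.255 CPM in Folfiri libraries, and Ttr and Serpina1a stayed below 0.1 CPM in both groups. The part of hepatocyte RNA in the level of Cp was not tested.

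Heph (ENSMUSG00000031209, chromosome X from 96455359 to 96574485) encodes hephaestin, the membrane ferroxidase through which intestinal cells pass iron to the blood. Its level was 81.1, 90.5 and 94.5 CPM in the controls and 29.0, 28.3 and 24.6 CPM after Folfiri. All treated libraries were below all controls. The mean fell from 88.7 ± 6.91 to 27.3 ± 2.37 CPM, 3.25-fold, or by 1.70 on the log2 scale (edgeR SE 0.09, adjusted p = 6.91e-08). Hsf3, on the opposite strand, shares 29 exonic bases with it and had at most 9 counts in a library. Heph fell in the same libraries as Cdx2, an intestinal transcription factor and the epithelial marker with the widest fall. Of the 8 epithelial markers tested, 4 fell, 1 rose and 3 did not pass the threshold. The part of these marker changes in the level of Heph was not tested. The pseudogene Rpl17-ps8 lies within the span of Heph, with 1909 to 4254 counts a library, and shares no exonic base with it.

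Per exonic base, Cp made up 0.528% to 0.847% of the sum of Cp and Heph in controls and 31.9% to 41.6% after Folfiri. The ratio of Cp to Heph was 0.00854, 0.00531 and 0.00697 in controls and 0.469, 0.638 and 0.712 after Folfiri. Heph remained the more abundant transcript of the pair in every library. The margin depends on the length used. With the longest coding transcript as length, the ratio after Folfiri was 0.609, 0.828 and 0.924.

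**Figure D3:**
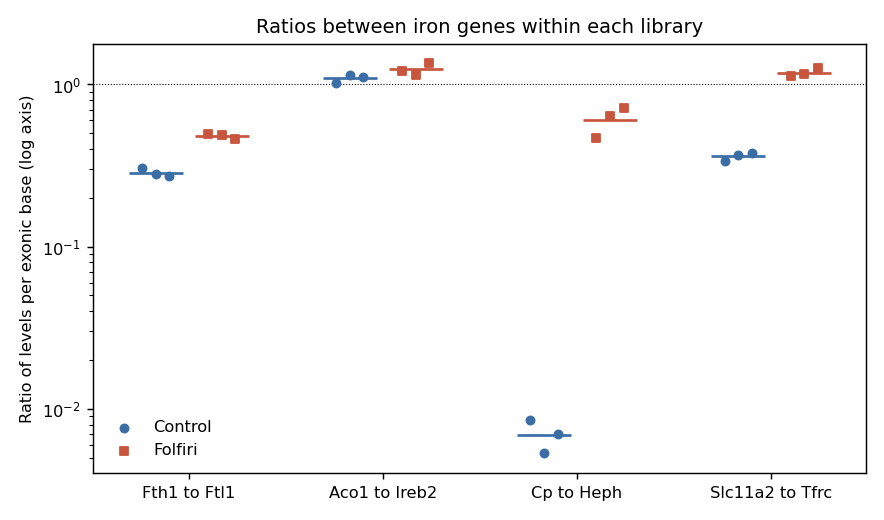
Ratios of levels per exonic base (log axis) between pairs of iron genes in each library, blue circles for control and red squares for Folfiri, with lines at the group means and a dotted line at 1. The ratio of Cp to Heph lies below 0.01 in each control and above 0.4 in each Folfiri library, and that of Slc11a2 to Tfrc lies below 1 in controls and above 1 after Folfiri.

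The exporter itself differed little. Slc40a1 (ENSMUSG00000025993, chromosome 1 from 45908068 to 45926523), the gene of ferroportin, stood at 22.1, 23.2 and 21.0 CPM in controls and 19.5, 20.6 and 19.3 CPM after Folfiri. The treated values lay just below the control values, without overlap. The log2 fold change of -0.16 (95% interval -0.35 to 0.03) did not pass the threshold (adjusted p = 0.104 from edgeR), and it was 0.12 with total counts only.

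The iron regulatory proteins showed small differences. Aco1 (ENSMUSG00000028405, chromosome 4 from 40143081 to 40198338) encodes IRP1, which acts as the cytosolic aconitase when it holds an iron-sulfur cluster and binds IREs when it does not. It had 92.2, 93.5 and 93.8 CPM in controls and 91.5, 90.9 and 93.8 CPM after Folfiri, the tightest values among the 10 genes, with a coefficient of variation of 0.939% in controls. The groups overlapped, with a log2 fold change of -0.02 (95% interval -0.16 to 0.12, adjusted p = 0.815 from edgeR), which turned to 0.26 and a call with total counts only.

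Ireb2 (ENSMUSG00000032293, chromosome 9 from 54863789 to 54912530) encodes IRP2, whose amount is set mainly by breakdown of the protein when iron is plentiful. Its level was 191, 172 and 178 CPM in controls and 159, 167 and 147 CPM after Folfiri, without overlap. The log2 fold change was -0.20 (edgeR SE 0.08, adjusted p = 0.0327), and the adjusted p ran from 0.0238 to 0.432 over the alternatives. The call was lost with upper quartile scaling at -0.14, with total counts only at 0.077, with the replicate number as a block (adjusted p = 0.0529), and without control replicate 3 (-0.22), Folfiri replicate 1 (-0.20) or Folfiri replicate 3 (-0.15). The ratio of Aco1 to Ireb2 per exonic base was 1.02, 1.14 and 1.11 in controls and 1.21, 1.15 and 1.35 after Folfiri, a narrow gap between groups.

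Levels were set against each other per kilobase of exonic sequence (RPKM, from TMM-normalized CPM). In controls Ftl1 stood first at 668 ± 122 RPKM and Fth1 second at 190 ± 24.9 RPKM, at percentiles 99.3 and 97.1 of all tested genes. Aco1, Tfrc and Ireb2 followed at 20.7, 20.2 and 19.0 RPKM. Tfrc overlapped with both of its neighbours, which did not overlap with each other. Heph at 11.6, Slc11a2 at 7.23 and Slc40a1 at 2.46 RPKM came next. Cp and Steap3, at 0.0797 and 0.0725 RPKM, were last and did not differ beyond their spread.

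After Folfiri the order changed in the middle. Ftl1 and Fth1 still led, at 398 and 191 RPKM, followed by Aco1 at 20.5, Ireb2 at 16.6, Slc11a2 at 13.6, Tfrc at 11.5 and Heph at 3.56 RPKM. Slc40a1 at 2.20 ± 0.08 and Cp at 2.14 ± 0.32 RPKM did not differ beyond their spread, and Steap3 stayed last at 0.146 RPKM. Cp thus went from percentile 4.49 to 32.9 of all tested genes and Heph from 68.9 to 42.4. With the longest coding transcript as the length, Ireb2 ranked above Tfrc and Aco1 in controls and above Aco1 after Folfiri, Tfrc above Aco1 in controls, and Slc40a1 above Heph after Folfiri.

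The rest of iron handling was described with 75 other genes in 8 lists, of which 62 were tested. Folfiri raised 25 and lowered 25 (80.6% called, against 79.1% of all genes), with a median log2 fold change of -0.01. With total counts only, 31 were higher and 17 lower.

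Among 16 other genes of iron and heme uptake, 11 were tested, 4 rose and 6 fell, or 3 with total counts only. Steap4, a metalloreductase known to respond to inflammation, had 0 counts in all controls and from 41 to 55 after Folfiri, at least 35.2-fold higher against a floor of 3 counts over the control group. Lcn2, which binds bacterial iron carriers, rose from 0.142 ± 0.0648 to 3.96 ± 0.766 CPM. Slc46a1, a transporter of folate and heme, rose with a log2 fold change of 1.54. Cubn, part of a receptor that takes up transferrin among other proteins, fell from 46.5 ± 3.42 to 5.31 ± 0.199 CPM, or -3.13 in log2 fold change (edgeR adjusted p = 2.97e-09). Slc39a8, a transporter of zinc, manganese and iron, and Trf, the transferrin gene, had log2 fold changes of -1.55 and -0.95.

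Of 3 storage genes tested, Ncoa4, the receptor that delivers ferritin to the lysosome for breakdown, fell from 311 ± 33.0 to 146 ± 4.75 CPM, a log2 fold change of -1.09. Pcbp2, an RNA-binding protein that also hands iron to ferritin, fell with -0.39, a call lost with total counts only, and Pcbp1 did not pass the threshold at -0.01. Of 3 tested genes of the export list, 2 rose and 1 fell. The heme exporter Flvcr1 rose with a log2 fold change of 1.32. Its relative Flvcr2, for which these data show no role in export, fell with -1.41. The other riser was Abcg2, a transporter of many compounds including porphyrins, with 15, 5 and 7 counts in controls and 13, 31 and 28 after Folfiri (adjusted p = 0.0392). Its groups overlapped, and the number of export genes called higher was 1 with DESeq2, with the filter of 1 CPM, and without control replicate 2 or 3 or Folfiri replicate 2 or 3. Of 3 tested genes of the hepcidin list, 1 rose and 1 fell. Bmp6, which induces hepcidin in the liver, rose from 0.432 to 1.93 CPM, whereas Hamp, the hepcidin gene, had at most 3 counts in a library and was not tested. Hfe, which helps liver cells to sense iron, had a log2 fold change of -1.08. Fbxl5, which marks IRP2 for breakdown, had a log2 fold change of 0.07 (adjusted p = 0.534), which was 0.35 and a call with total counts only.

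Iron-sulfur cluster genes moved in both directions. In the mitochondrial list 7 of 16 tested genes rose and 4 fell. The chaperone Hspa9 and the scaffold Iscu rose with log2 fold changes of 1.05 and 1.04 and Bola3 with 0.76, while Abcb8, Hscb and Isca2 had -1.21, -0.88 and -0.77. Of the 9 genes of the cytosolic machinery 6 rose and 3 fell, in a data set where 79.1% of all genes were called, and their median was 0.50 beside 0.02 for all genes. Ndor1, which supplies electrons for cluster assembly, rose with a log2 fold change of 2.34, the scaffold subunit Nubp2 with 1.55 and Ciao3 with 1.22. Ciao2b, Nubp1 and Mms19 had -0.79, -0.46 and -0.38, and of these only Ciao2b was still called with total counts only.

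For heme, 5 of 13 tested genes rose and 6 fell. Hmox1, heme oxygenase, which frees iron from heme, fell from 87.5 ± 13.2 to 28.2 ± 3.12 CPM, or -1.63 in log2 fold change (edgeR adjusted p = 5.71e-07). Blvrb, a biliverdin reductase, had -1.41. Uros and Cpox, enzymes of heme synthesis, rose with 2.18 and 0.51, and Blvra, another biliverdin reductase, with 0.72. Some of these genes share exonic bases with another gene that had counts, and reads there cannot be assigned without strand. The shared part was 36.9% of the exonic length for Nubp1, 30.2% for Pcbp2, 15.6% for Flvcr1, 12.9% for Alas2, 9.21% for Mms19, 8.74% for Ciao3, 5.74% for Bmp6, 5.14% for Ndor1, 4.10% for Pcbp1, 3.06% for Cpox, 1.70% for Cdc42bpa and 1.01% for Fbxl5. Bmp6, with 9 to 69 counts a library, lies opposite Txndc5, with 49601 counts over the 6 libraries, and Alas2, with 7 to 13, lies opposite Apex2, with 2227, so the values of Bmp6 and Alas2 are uncertain. The genes that overlap Cubn, Trf, Ciao2b and Cdc14a had 0 counts. How reads on overlapping genes were counted is not given, so 0 counts cannot show that no reads were lost there. For Trf the overlapping gene, Gm20425 on the same strand, covers 63.5% of its exonic length.

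**Figure D4:**
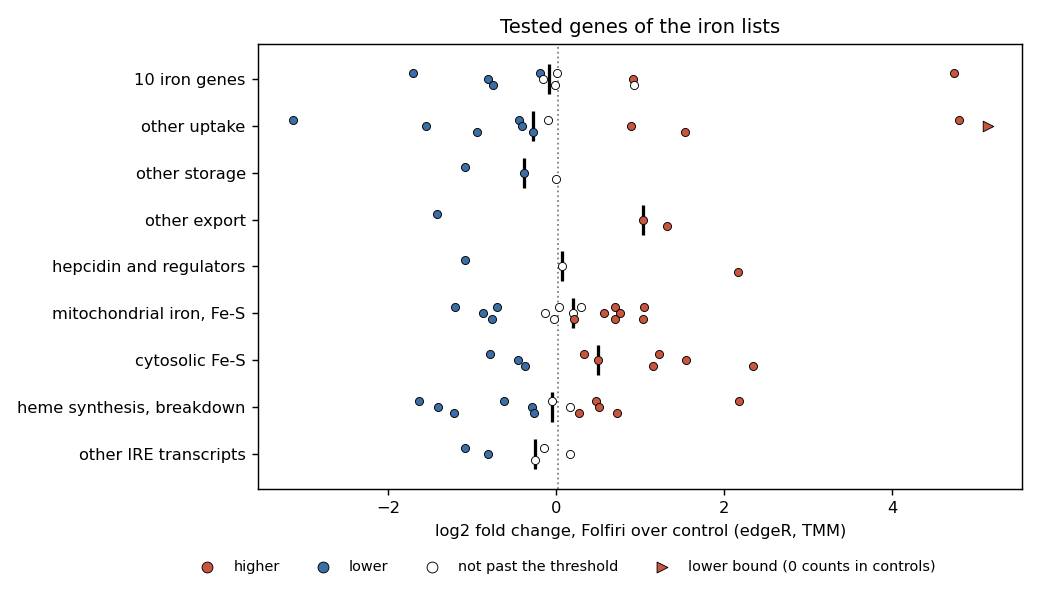
Log2 fold change of Folfiri over control (x axis) of the tested genes of each iron list, red for higher, blue for lower and white for genes that did not pass the threshold, with black bars at list medians, a dotted line at the median of all genes, and a triangle for Steap4 at its lower bound. Each list of 9 or more genes holds changes in both directions.

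Among further transcripts known to carry an IRE, Epas1, which encodes HIF-2α, fell with a log2 fold change of -1.08, and Alas2, Cdc14a and Cdc42bpa did not pass the threshold. All genes with a match to the letters above were then counted with the iron genes left out. Of 21 tested genes with a match in a 5′ UTR, 6 rose and 9 fell (71.4% called, against 79.1% of all genes). Of 99 with a match in a 3′ UTR, 40 rose and 40 fell (80.8% called). Of all genes, 40.3% rose and 38.8% fell. The median log2 fold changes of these groups were -0.11 and 0.03, beside 0.02 for all genes.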

How the data were processed

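The authors aligned the reads with STAR 2.5.2 to the mouse genome (GRCm38) with GENCODE vM25 annotation, used Sambamba on the alignments and Rsubread for counting, and deposited raw counts for each gene. The strand setting and the treatment of reads with several positions are not given in the sources used here. Samples were grouped by their labels. The iron genes and lists were chosen with earlier results of these data known.

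Ensembl identifiers were matched to GENCODE vM21 on the same build, which holds 24168 of the 24190 genes. Counts were filtered with filterByExpr, scaled with TMM and tested in edgeR 4.0.16 (R 4.3.3). The procedure was also run on simulated counts in which few genes changed, evenly in both directions. That run cannot show how the scaling behaves where most genes change, as here. SE values are the log2 fold change over the root of the quasi-likelihood F. Group values are mean ± SD of TMM-normalized CPM. From each further list the text names up to 3 genes per direction with the widest change among called genes with separate groups and at least 1 CPM in the higher group. Other genes were named after their values were seen, and a few items are not reported here. Each result was computed again with other scalings (upper quartile, total counts, size factors of DESeq2), with no filter or a filter of 1 CPM in 3 samples, with the Wald test of DESeq2 1.42.0, with replicate numbers blocked, without each library in turn, and with the ferritin light chain loci summed. Intervals cover the spread between these samples only.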

Additional observations from a re-analysis of the deposited data

How the results depend on the processing

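The calls of Cp, Slc11a2, Heph, Tfrc and Ftl1 and their directions held under every alternative run. With total counts only, 5 iron genes were higher in place of 2, and the log2 fold changes of Slc40a1, Aco1 and Ireb2 became 0.12, 0.26 and 0.077. With upper quartile scaling that of Aco1 was 0.039. With no filter on low counts that of Fth1 was -0.018, and with one replicate left out it ran from -0.10 (without control replicate 1) to 0.060. The shift of all genes by the scaling accompanies the moves under total counts. The number of iron genes called ran from 5 to 7 with one replicate left out and from 5 to 8 under the other alternatives, and that of the other iron genes from 46 to 51 with one replicate left out. With total counts only, Pcbp2, Mms19 and Nubp1 lost their calls, and the storage list had 1 gene higher and 1 lower. Samples with the same replicate number did not deviate together, with correlations of 0.03, -0.12 and 0.04 for numbers 1, 2 and 3. With the number as a block, 11499 genes were called in place of 11623, and 5 iron genes in place of 6, since Ireb2 lost its call (adjusted p = 0.0529 from edgeR). Ratios were also computed with the longest coding transcript as length and with Ftl1-ps1 added, both chosen after seeing the data. Depth limits Steap3 and the other genes with few counts.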
